A study of Callithrix jacchus with 4 samples.

Results

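KCNQ3, KCNQ5, KCNH1, KCNH5, KCNH7 and HCN2 encode pore-forming subunits of channels that act near the resting potential of neurons. They were taken by symbol from the deposited gene table, which held a row for 6 of the 6 genes among 35205 rows, and 6 of 6 passed the filter on low counts, as did 16956 rows in all. Poly(A)-selected RNA from the brain of common marmosets (Callithrix jacchus), a small New World monkey, was sequenced at postnatal day 5. There were 2 libraries from animals with an FMR1 mutation made with CRISPR/Cas9 and 2 from wild-type animals. FMR1 encodes FMRP, an RNA-binding protein of neurons that is lost in fragile X syndrome. The series describes the tissue as forebrain with cortex, striatum and hippocampus, while each library is labelled only as brain, so the region and the proportions of regions in a library are not known here. The labels give neither the mutated sequence, nor the sex of the animals, nor whether each library came from its own animal. The p-values therefore reflect only how far these samples spread, which may be technical.

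KCNQ subunits carry the M-current, a slow potassium current that opens below spike threshold, restrains repetitive firing and closes when muscarinic receptors deplete the membrane lipid PIP2. KCNH subunits form the EAG, ERG and ELK potassium channels, which carry a cyclic nucleotide binding homology domain but are not gated by cAMP. HCN subunits form cation channels that open on hyperpolarization, are tuned by direct binding of cAMP and set resting potential and dendritic integration in cortical and thalamic neurons. These currents together shape how far a neuron sits from threshold, and FMRP is known from rodents to bind or regulate several ion channels.

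Total counts lay between 12331639 and 13455702 per library. Values are given as CPM, counts scaled by library size with the TMM method, and log2 fold changes are FMR1 mutant over wild-type. Adjusted p-values are from the edgeR quasi-likelihood test, adjusted by Benjamini-Hochberg over all 16956 genes, with 0.05 as the threshold. Intervals on a single library's CPM are exact 95% Poisson intervals and cover counting error only. Cortical and striatal markers were counted in all libraries. The summed level of 8 cortical excitatory neuron markers was 2391 and 2388 CPM in mutant against 2041 and 2301 CPM in wild-type libraries, and that of 8 striatal projection neuron markers 422 and 521 CPM in mutant against 514 and 485 CPM in wild-type libraries. All 6 thalamic markers were highest in wild-type replicate 1, and their summed level was 75.0 and 80.1 CPM in mutant replicates 1 and 2, against 224 and 65.8 CPM in wild-type replicates 1 and 2. TCF7L2 was 96.0 CPM in wild-type replicate 1 against 11.3 CPM in wild-type replicate 2, while the thalamic marker SHOX2 was at 0 in mutant replicate 2. FMR1 RNA was at 81.1 and 119 CPM in mutant and at 86.3 and 78.6 CPM in wild-type libraries, and these groups overlapped.

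Among the 6 channel genes, 1 fell and 0 rose in the mutant libraries, with 5 not past the threshold. Of all genes tested, 2.23% passed in either direction, 1.57% as lower and 0.661% as higher. The gene that fell was KCNH5, at 0.68 times its wild-type level. For KCNQ5 and HCN2 each mutant library was also below each wild-type library, without passing the test. KCNQ3, KCNH1 and KCNH7 had overlapping groups. The median log2 fold change of the 6 genes was -0.26, beside -0.004 over all genes tested, and 5 of the 6 had a negative value, as did 50.7% of all genes tested. Groups that did not overlap with mutant lower were seen for 3 of the 6 genes and for 21.8% of all genes tested.

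**Figure D1:**
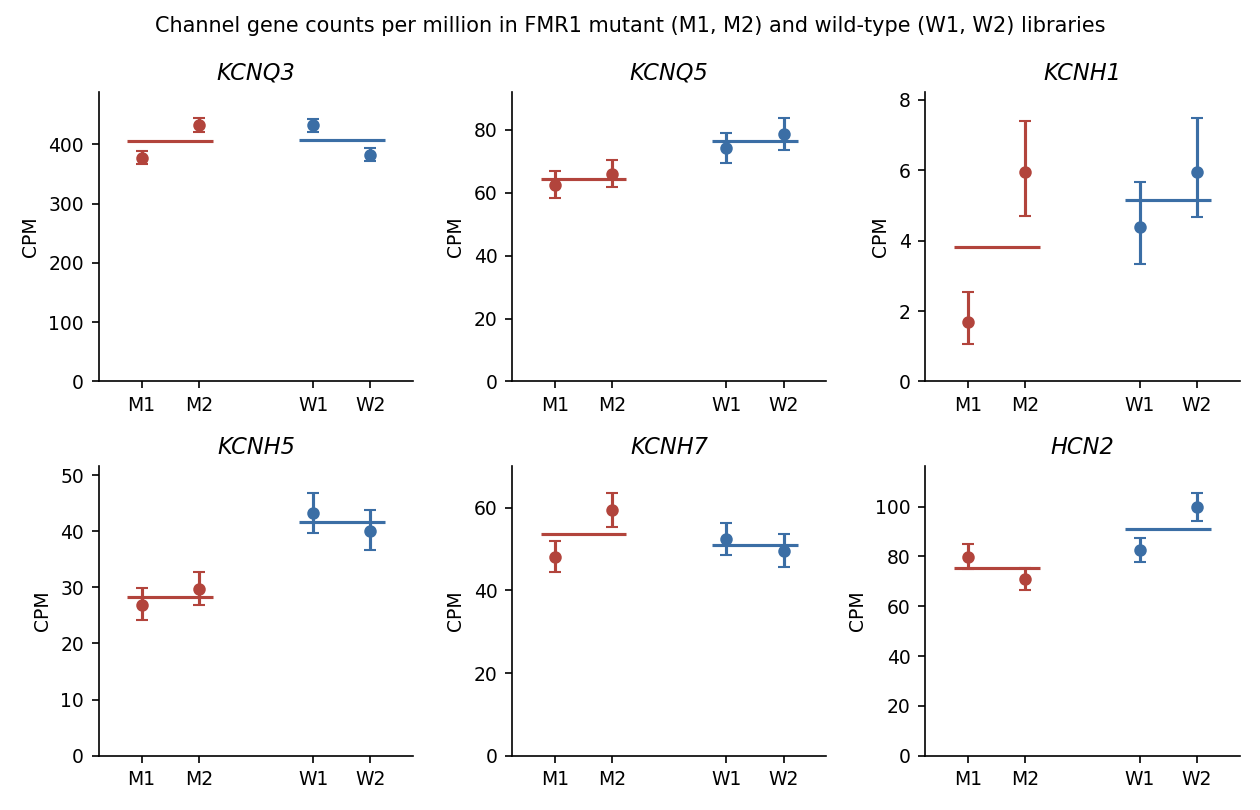
CPM of each channel gene (vertical axes, each from 0) in FMR1 mutant replicates 1 and 2 (M1, M2, red) and wild-type replicates 1 and 2 (W1, W2, blue), with exact 95% Poisson intervals as bars and group means as lines. KCNH5 sat at 26.9 and 29.7 CPM in mutant libraries, below 43.2 and 40.1 CPM in wild-type libraries, and KCNH1 was lowest in mutant replicate 1 at 1.68 CPM.

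KCNQ3 and KCNQ5 encode M-channel subunits. KCNQ3 is a subunit of the classical M-channel of forebrain neurons and reaches the axon initial segment through ankyrin G. It was counted 4944 and 5832 times in mutant replicates 1 and 2 and 5729 and 4701 times in wild-type replicates 1 and 2, or 377 and 433 CPM in mutant against 432 and 383 CPM in wild-type libraries. The higher libraries of both groups were nearly equal, as were the lower ones, so the groups overlapped. Mean abundance was 405 ± 39.1 CPM in mutant and 407 ± 34.95 CPM in wild-type libraries (SD, n = 2 each). Its log2 fold change was -0.01 (SE 0.12, 95% interval -0.24 to 0.23, adjusted p = 0.987).

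KCNQ5, a subunit that contributes to M-current and, in mice, to afterhyperpolarization currents of the hippocampus, was counted 820 and 889 times in mutant replicates 1 and 2 and 982 and 965 times in wild-type replicates 1 and 2. These were 62.6 and 66.0 CPM in mutant against 74.1 and 78.6 CPM in wild-type libraries. Both mutant libraries were below both wild-type libraries. The log2 fold change, -0.25 with an SE of 0.13 and a 95% interval from -0.51 to 0.01, missed the threshold (adjusted p = 0.404). It lay between -0.29 and -0.20 when each library was left out in turn.

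KCNQ5 took 14.2% and 13.2% of the counts of KCNQ3 and KCNQ5 together in mutant replicates 1 and 2, against 14.6% and 17.0% in wild-type replicates 1 and 2. Such a share can be compared between libraries but not between genes, since transcript length was not entered. Both mutant shares were below both wild-type shares, while the exact 95% binomial interval of mutant replicate 2 (12.4 to 14.1%) overlapped that of wild-type replicate 1 (13.8 to 15.5%).

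KCNH1 and KCNH5 encode the subunits of EAG channels, voltage-gated potassium channels that are inhibited by calcium-calmodulin and are enriched in brain. KCNH5 was counted 353 and 400 times in mutant replicates 1 and 2 and 573 and 492 times in wild-type replicates 1 and 2, or 26.9 and 29.7 CPM in mutant against 43.2 and 40.1 CPM in wild-type libraries. The Poisson interval of the higher mutant library (26.8 to 32.7 CPM) ended below that of the lower wild-type library (36.6 to 43.8 CPM). Such intervals cover counting error only, and across genes the replicates differed by more than that. Mean abundance was 28.3 ± 1.93 CPM in mutant and 41.6 ± 2.24 CPM in wild-type libraries (SD, n = 2 each), a ratio of 0.68. The log2 fold change was -0.56 (SE 0.15, 95% interval -0.86 to -0.26, adjusted p = 0.0334). KCNH5 ranked at 311 by p among the 16956 genes, and 6.44% of the genes tested had a more negative fold change.

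The direction of KCNH5 was the same in each fit that left out 1 library, with log2 fold changes between -0.63 and -0.49. The call held without wild-type replicate 2 (adjusted p = 0.0372). It was lost without mutant replicate 1 (adjusted p = 0.285), without mutant replicate 2 (adjusted p = 0.0867) and without wild-type replicate 1 (adjusted p = 0.170), and also by DESeq2 (adjusted p = 0.106). In bulk tissue, fewer cells of a type and less RNA per cell cannot be told apart. Markers of other cell types moved in the same libraries. Of 8 mature oligodendrocyte markers, 8 fell, and their summed level was 983 and 918 CPM in mutant libraries against 2524 and 2488 CPM in wild-type libraries, with no marker at 0. Of 8 GABAergic interneuron markers, 1 fell, GAD2, and 3 had a positive value. Their summed level was 705 and 694 CPM in mutant against 750.1 and 770.2 CPM in wild-type libraries. Of 7 astrocyte markers, 1 fell and all 7 had a negative value, with 3371 and 3666 CPM in mutant against 4685 and 4518 CPM in wild-type libraries. Of 6 oligodendrocyte precursor and 7 microglial markers, 2 of each fell, and all had a negative value. Of 7 pan-neuronal markers with a row, 0 passed by edgeR and 2 had a positive value. Their summed level was 7296 and 7379 CPM in mutant against 7159 and 6860 CPM in wild-type libraries. Of 8 cortical excitatory neuron markers, 1 rose, the transcription factor gene NEUROD6, at 272 and 270 CPM in mutant against 212 and 195 CPM in wild-type libraries (log2 fold change of 0.41, adjusted p = 0.047), and 6 of the 8 had a positive value. The part of these cell types in the KCNH5 difference was not tested.

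KCNH1, whose gain-of-function variants cause developmental syndromes with epilepsy in humans, was the least counted of the 6 genes. It was counted 22 and 80 times in mutant replicates 1 and 2 and 58 and 73 times in wild-type replicates 1 and 2, or 1.68 and 5.94 CPM in mutant against 4.38 and 5.94 CPM in wild-type libraries. Mutant replicate 1 stood below the other 3 libraries, and its Poisson interval, which ended at 2.54 CPM, lay below the 4.71 to 7.39 CPM of mutant replicate 2. KCNH1 had a log2 fold change of -0.43 (SE 0.49, 95% interval -1.55 to 0.69, adjusted p = 0.788). Leaving out mutant replicate 2 gave -1.61 and leaving out mutant replicate 1 gave 0.20, so the sign rested on mutant replicate 1. That library also stood apart in the summed level of 5 choroid plexus markers, 120 and 22.0 CPM in mutant replicates 1 and 2. Wild-type replicates 1 and 2 had 24.1 and 27.7 CPM. Most of that 120 CPM was TTR, at 94.97 and 6.46 CPM in mutant against 0.603 and 7.25 CPM in wild-type libraries. CLIC6 was also highest in mutant replicate 1, at 4.35 CPM. AQP1 was at 16.8 CPM there, beside 16.0 CPM in wild-type replicate 1. KL was lowest there, and FOLR1, at 3.05 CPM, was below both wild-type libraries (5.36 and 3.58 CPM). The part of choroid plexus tissue in the KCNH1 values was not tested. KCNH5 took 94.1% and 83.3% of the counts of KCNH1 and KCNH5 together in mutant replicates 1 and 2, against 90.8% and 87.1% in wild-type replicates 1 and 2, and the groups overlapped.

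KCNH7 encodes an ERG subunit, related to the cardiac channel gene KCNH2, that is found mainly in the nervous system. It was counted 630 and 801 times in mutant replicates 1 and 2 and 694 and 609 times in wild-type replicates 1 and 2, or 48.1 and 59.4 CPM in mutant against 52.4 and 49.6 CPM in wild-type libraries. Mutant libraries held both the lowest and the highest value. KCNH7 had a log2 fold change of 0.08 (SE 0.14, 95% interval -0.20 to 0.36, adjusted p = 0.883), and it was -0.08 without mutant replicate 2.

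Among the other ERG genes, KCNH2 was lower in both mutant libraries but rested on 1 wild-type library. Its level was 26.1 and 21.6 CPM in mutant libraries, against 41.3 CPM in wild-type replicate 1 and 26.6 CPM in wild-type replicate 2. Wild-type replicate 1 was the library with the high thalamic markers, and the part of this tissue in the KCNH2 values was not tested. The log2 fold change of -0.51 (SE 0.18, adjusted p = 0.179) was -0.16 without wild-type replicate 1 (adjusted p = 0.862) and -0.79 without wild-type replicate 2 (adjusted p = 0.00252). KCNH7 took 64.6% and 73.3% of the counts of the ERG genes KCNH2, KCNH6 and KCNH7 in mutant libraries, against 55.6% and 64.9% in wild-type libraries. Mutant replicate 1 and wild-type replicate 2 were nearly equal in this share. KCNH6 was counted 4 and 1 times in mutant and 6 and 2 times in wild-type libraries and was not tested.

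**Figure D2:**
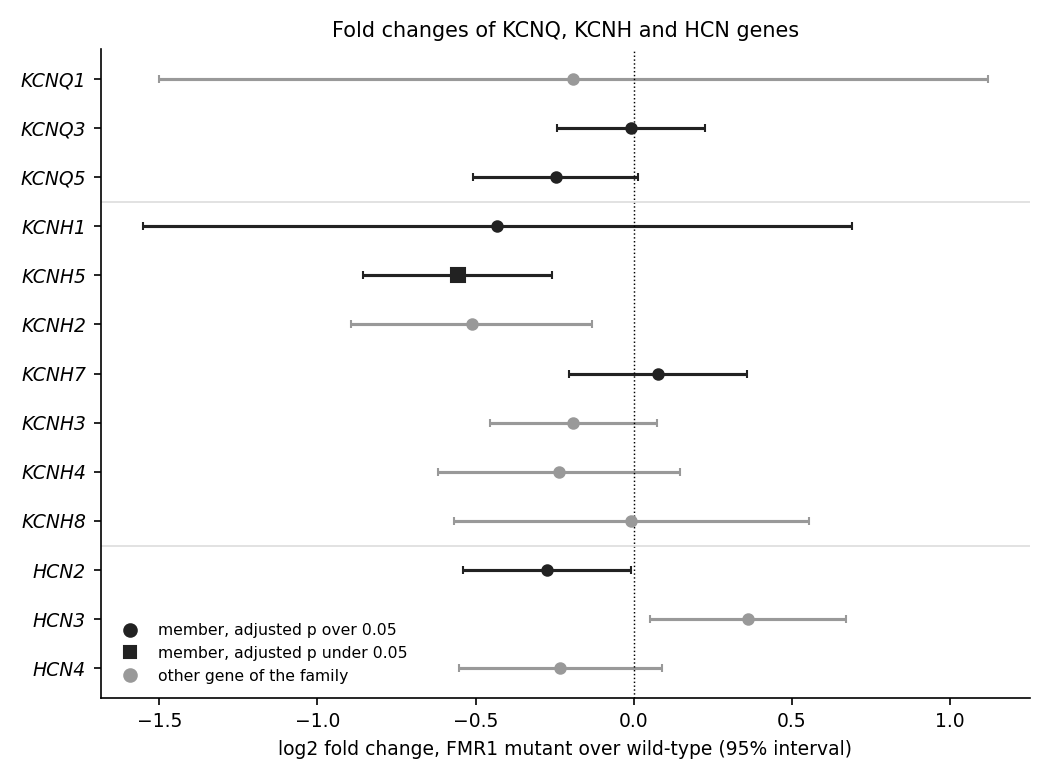
Log2 fold changes, FMR1 mutant over wild-type, with 95% intervals for 13 tested genes of the KCNQ, KCNH and HCN families (horizontal axis; the 6 genes described here in black, the others in grey, a square where the adjusted p is under 0.05). KCNH5 at -0.56 carries the only square, HCN3 at 0.36 is the most positive value, and KCNQ1 and KCNH1 have the widest intervals.

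HCN2 encodes an HCN subunit with strong cAMP sensitivity, found in thalamic relay cells, interneurons and projection neurons and, in mice, also in myelinating oligodendrocytes. It was counted 1045 and 955 times in mutant replicates 1 and 2 and 1092 and 1226 times in wild-type replicates 1 and 2, or 79.8 and 70.9 CPM in mutant against 82.4 and 99.8 CPM in wild-type libraries. The groups did not overlap, but the gap between mutant replicate 1 and wild-type replicate 1 was small, with Poisson intervals of 75.0 to 84.8 CPM and 77.6 to 87.4 CPM that overlapped. The log2 fold change was -0.27 (SE 0.13, 95% interval -0.54 to -0.01, unadjusted p = 0.0426 by edgeR), and it did not pass over all genes (adjusted p = 0.350). An unadjusted p under 0.05 was reached by 13.4% of all genes tested. The fold change was -0.41 without wild-type replicate 1, -0.36 without mutant replicate 1, -0.19 without mutant replicate 2 and -0.13 without wild-type replicate 2. The mature oligodendrocyte markers given above were lower in the same libraries. The summed level of the thalamic markers was highest in wild-type replicate 1, at 224 CPM. It was lowest in wild-type replicate 2, at 65.8 CPM, the library with the highest HCN2 level. The part of these cell types in the HCN2 difference was not tested.

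HCN3 and HCN4 had log2 fold changes of opposite sign. HCN3, whose product passes a cation current that is little affected by cAMP, was at 33.4 and 37.3 CPM in mutant against 25.8 and 29.3 CPM in wild-type libraries. Both mutant libraries were above both wild-type libraries (log2 fold change of 0.36, SE 0.15, adjusted p = 0.270). Groups apart with mutant higher were seen for 3622 of the 16956 genes tested. HCN4, the slow subunit known from thalamus and cardiac pacemaker cells, was at 23.4 and 25.8 CPM in mutant against 29.3 and 28.6 CPM in wild-type libraries (-0.23, adjusted p = 0.572).

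Within the summed counts of HCN2, HCN3 and HCN4, HCN2 took 58.4% and 52.9% in mutant replicates 1 and 2, against 59.9% and 63.3% in wild-type replicates 1 and 2. The intervals of mutant replicate 1 (56.1 to 60.7%) and wild-type replicate 1 (57.6 to 62.2%) overlapped. HCN3 took 24.5% and 27.9% in mutant libraries, against 18.8% and 18.6% in wild-type libraries, and here the lower mutant interval (22.5 to 26.5%) lay above the higher wild-type interval (17 to 20.6%). These intervals cover counting error only, and with 2 libraries a group no exact permutation test of a single value can give a two-sided p under 0.333.

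**Figure D3:**
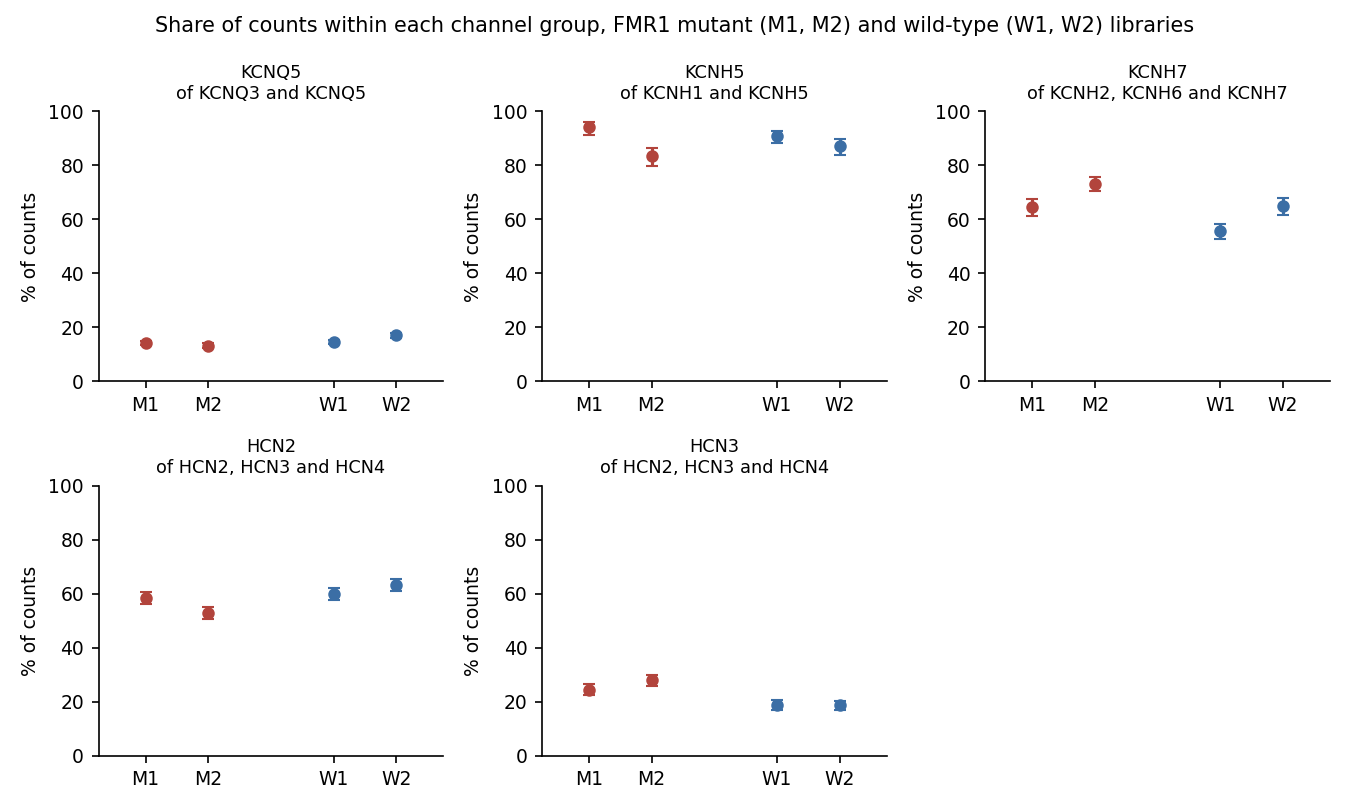
Percent of counts that a gene took within its channel group in FMR1 mutant (M1, M2, red) and wild-type (W1, W2, blue) libraries, with exact 95% binomial intervals; each vertical axis is the percent of counts, from 0 to the whole. HCN3 lies at 24.5 and 27.9% in mutant libraries, above 18.8 and 18.6% in wild-type libraries, and the KCNH5 shares of the groups overlap.

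Of 8 other KCNQ, KCNH and HCN genes, 7 were tested, and 0 rose or fell by edgeR (0 by DESeq2 and 0 by limma-voom, and 2 at an unadjusted p under 0.05, KCNH2 and HCN3). The median was -0.19, with 1 value above and 6 below 0. Over all genes tested the median was -0.004, 50.7% had a negative value and 13.4% an unadjusted edgeR p under 0.05. The ELK gene KCNH3 was at 166 and 158 CPM in mutant against 157 and 213 CPM in wild-type libraries (-0.19, adjusted p = 0.569), so wild-type replicate 2 alone stood high. KCNH4 (-0.24), KCNH8 (-0.01) and KCNQ1 (-0.19) had adjusted p of at least 0.649 by edgeR. KCNQ1, chiefly a gene of heart and epithelia, was counted 6 to 15 times per library.

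Partners and regulators of these channels gave no call. Of 24 listed genes 20 were tested, 0 passed by edgeR, DESeq2 or limma-voom, and the median was -0.04. An unadjusted edgeR p under 0.05 was reached by 1 of the 20, beside 13.4% of all genes tested. The smallest p-values were those of PIP5K1B, a kinase that makes the PIP2 on which M-channels depend, and AKAP5, which anchors protein kinase C and A at M-channels. PIP5K1B was at 11.3 and 10.1 CPM in mutant against 15.2 and 13.7 CPM in wild-type libraries (-0.43, SE 0.20, adjusted p = 0.344). AKAP5 was at 61.5 and 69.7 CPM in mutant against 79.1 and 77.8 CPM in wild-type libraries (-0.26, SE 0.13, adjusted p = 0.38). Both genes were lower in each mutant library than in each wild-type library, as were 6 of these 20 genes and 21.8% of all genes tested.

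Among 19 other channel genes that act below threshold (inward rectifiers, leak, A-type, low-voltage Kv and T-type calcium channels), 1 fell, 0 rose and 18 did not pass, with a median of -0.18. An unadjusted p under 0.05 was reached by 6 of the 19, beside 13.4% of all genes tested. The gene that fell was KCNJ12, a strong inward rectifier, at 7.56 and 8.90 CPM in mutant against 16.2 and 12.2 CPM in wild-type libraries (-0.79, SE 0.22, adjusted p = 0.0481). Without wild-type replicate 1 its value was -0.57 (adjusted p = 0.364), and it did not pass by DESeq2 (adjusted p = 0.253), limma-voom (adjusted p = 0.0535), or with mutant replicate 1 (adjusted p = 0.396) or mutant replicate 2 (adjusted p = 0.128) left out. KCNK3, a pH-sensitive leak channel, came next at 12.7 and 12.5 CPM in mutant against 20.0 and 19.5 CPM in wild-type libraries (-0.65, SE 0.18, adjusted p = 0.0533). Its value stayed between -0.67 and -0.63 with any 1 library left out, while its adjusted p was 0.232 by DESeq2.

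**Figure D4:**
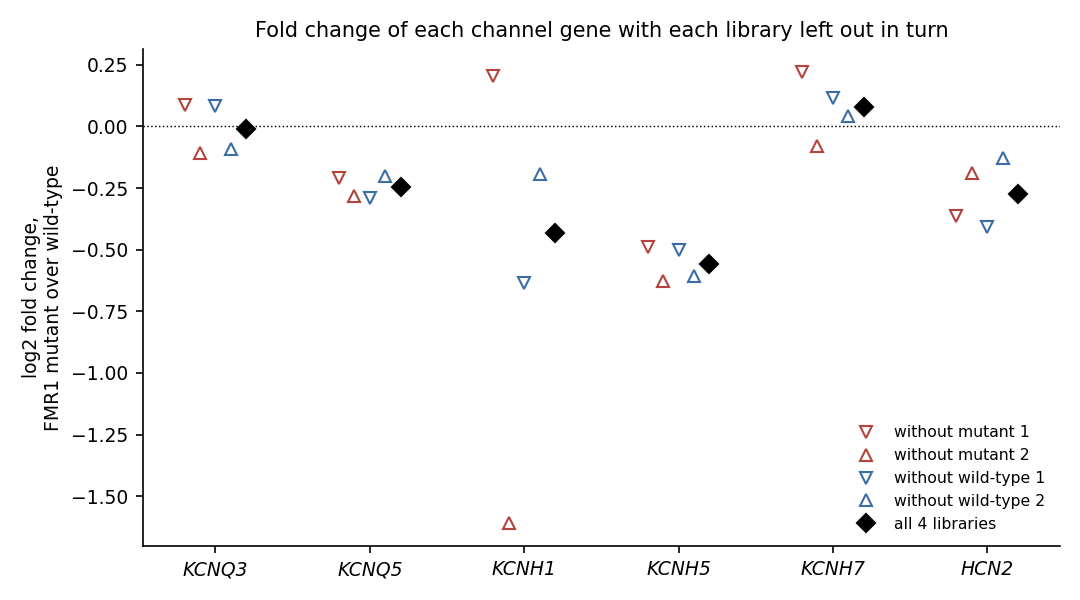
Log2 fold change, FMR1 mutant over wild-type (vertical axis), of each of the 6 channel genes with all 4 libraries (black diamonds) and with mutant (red) or wild-type (blue) replicate 1 (down triangles) or replicate 2 (up triangles) left out. KCNH5 stays between -0.63 and -0.49 and KCNQ5 between -0.29 and -0.20, while KCNH1 ranges from -1.61 to 0.20.

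Levels over the 4 libraries were set beside those of other genes with a symbol and a mean of at least 10 CPM, by Euclidean distance between centred log2 CPM values. With 4 libraries, many genes lie close to any pattern, and the measure describes likeness only. KCNH5 was nearest to NFASC, a cell adhesion gene with neuronal isoforms at the axon initial segment and node and a glial isoform at the paranode (distance 0.0319). NFASC was at 203 and 230 CPM in mutant against 328 and 301 CPM in wild-type libraries (log2 fold change -0.54, adjusted p = 0.00607). Its call was lost with mutant replicate 1 left out (-0.45, adjusted p = 0.101) and with wild-type replicate 1 left out (-0.48, adjusted p = 0.0768). A distance under 0.1 from KCNH5 was found for 31 of the 10261 genes compared, against 287 for KCNQ3, 220 for KCNQ5, 207 for KCNH7 and 59 for HCN2. KCNQ3 was nearest to ELOA, KCNQ5 to DAB2IP, KCNH7 to ZBTB21 and HCN2 to BBC3, each at 0.0249 or less. KCNH1 had 0 genes within 0.1, the nearest being HUS1 at 0.476.

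Counts of genes with overlapping neighbours depend on the strand setting, which the sources used here do not give. In RefSeq's calJac240_pri annotation, used here for names only, 4 of the 6 channel genes overlap another listed gene. HHAT overlaps KCNH1 and was counted 40 and 40 times in mutant against 75 and 65 times in wild-type libraries, in the same range as the 22 to 80 counts of KCNH1. GCA overlaps KCNH7 and was counted 20 and 34 times in mutant against 53 and 48 times in wild-type libraries. The gene listed as overlapping KCNH5 was counted 3 to 13 times per library. No gene is listed as overlapping KCNQ3 or HCN2.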

How the data were processed

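The values are raw counts per gene as deposited by the authors, 1 column per library, whole numbers with no normalization. Per the submitters' processing notes, reads went through Trimmomatic 0.38 and STAR 2.7.10a. Counter, annotation, build and strand setting are not stated in those notes or the labels. Per the labels' protocols, libraries were poly(A)-selected and directional. Columns were matched to libraries by name.

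In R 4.3.3, edgeR 4.0.16 was run with filterByExpr (minimum count of 10), TMM scaling and a robust quasi-likelihood fit over 16956 genes (residual degrees of freedom 2, prior degrees of freedom 31.6 at the median). The SE is the log2 fold change over the root of F. An adjusted p with no tool named comes from this fit. Replicates differed beyond sampling noise (chi-square per degree of freedom of 6.90 in mutant and 7.28 in wild-type libraries). Alternatives were other scalings (RLE, upper quartile), DESeq2 1.42.0, limma-voom (limma 3.58.1), a non-robust fit, other filters, a replicate block, an adjusted p of 0.1 and leaving out single libraries on the same genes. The test was tested on simulated data first. The channel genes and lists were chosen with earlier results of these data known. A few related channel genes are not reported here and were left out of the counts and medians of their lists. Named were the 6 genes, the other KCNQ, KCNH and HCN genes kept in the lists, list members that passed (where fewer than 2 passed, those with the smallest p, up to 2) and the nearest gene of each of the 6. KCNJ4, KCNE1, KCNE2, KCNE3, KCNE4, KCNE5, PEX5L, CHRM1, HHAT, GCA and single markers were named after their values were seen. Sequences were not used here.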

Additional observations from a re-analysis of the deposited data

How the results depend on the processing

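Over the 6 channel genes, the count past the threshold was 1 (KCNH5) with either other scaling, limma-voom, robust = FALSE, no filter, a mean of at least 1 CPM and an adjusted p of 0.1, and 0 by DESeq2, where KCNH5 was at -0.55. With 1 library left out it ranged from 0 to 1, with KCNH5 from -0.63 to -0.49, KCNQ5 from -0.29 to -0.20, HCN2 from -0.41 to -0.13, KCNQ3 from -0.11 to 0.087, KCNH1 from -1.61 to 0.20 and KCNH7 from -0.081 to 0.22. KCNQ3 changed sign without mutant replicate 1 (0.087) and without wild-type replicate 1 (0.082). The count over all genes was 378, and 244 by DESeq2, 633 with no filter, 624 at an adjusted p of 0.1 and 163 to 562 with 1 library left out. Among the other KCNQ, KCNH and HCN genes it was 0 to 1 with 1 library left out (KCNH2, without wild-type replicate 2). Among the other subthreshold channels the count of 1 was 0 with upper-quartile scaling, DESeq2, limma-voom and robust = FALSE, 2 with a mean of at least 1 CPM, 3 (KCNJ4, KCNJ12 and KCNK3) with no filter and at an adjusted p of 0.1, and 0 to 1 with 1 library left out (KCNJ4 and not KCNJ12 without mutant replicate 1, KCNJ12 without wild-type replicate 2, and 0 without either of the others). With the replicate number as a block, KCNH5 was at -0.56 (adjusted p = 0.0352), the count over all genes was 493 and that of the subthreshold channels 2, KCNJ12 and KCNK3. The labels do not say that a number marks a shared litter or day. Replicates numbered 1 deviated from their group means with a correlation of 0.0217 across genes. With 2 libraries per group, this value cannot tell whether libraries of the same number shared a litter or day.

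With 1 library left out, other genes that changed sign were KCNQ1 (-0.65 to 0.54), KCNH3 (-0.40 to 0.048), KCNH4 (-0.46 to 0.021) and KCNH8 (-0.22 to 0.25), none of them past the threshold. Such a fit leaves 1 residual degree of freedom and assumes that the lone library varies like the other group. Without either wild-type library the prior degrees of freedom were infinite, so genes then shared the fitted variance trend. KCNQ1, counted 6 to 15 times per library, had an SE of 0.64 at this depth. The cause of these differences was not tested.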

Other observations

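The KCNE genes, whose small membrane proteins modify KCNQ, KCNH and HCN channels, were sparsely counted apart from KCNE5. KCNE1 was counted 6 and 21 times in mutant replicates 1 and 2, against 6 and 7 times in wild-type replicates 1 and 2, KCNE2 1 to 5 times per library and KCNE3 0 to 4 times per library, and none of these was tested. KCNE4 was counted 12 and 23 times in mutant and 21 and 25 times in wild-type libraries (log2 fold change -0.46, adjusted p = 0.759 by edgeR). KCNE5 was counted 157 and 182 times in mutant and 196 and 141 times in wild-type libraries (log2 fold change -0.04, adjusted p = 0.965 by edgeR). PEX5L, the HCN accessory protein that controls trafficking and cAMP response, was counted 2318 and 2574 times in mutant and 2739 and 2374 times in wild-type libraries (-0.12, adjusted p = 0.721). The muscarinic receptor CHRM1, which closes M-channels, was counted 2253 and 1874 times in mutant and 1914 and 2117 times in wild-type libraries (-0.03, adjusted p = 0.967).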
